A study of Homo sapiens with 9 samples.

Results

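DNA damage signalling and repair genes were followed in SH-SY5Y cells after exposure to the mould toxin citrinin, a food contaminant. The set is 46 genes named by symbol, from damage sensors and kinases to the enzymes of each repair route. All 46 matched 1 gene identifier each among the 61487 in the count tables, and all 46 passed edgeR's filter on low counts, among 17806 genes tested. They were grouped here into 3 broad classes. The double-strand break class has 29 genes: 11 of damage signalling, 9 of homologous recombination, 3 of the Fanconi anaemia pathway and 6 of end joining. Some of the 29, such as ATR and the Fanconi anaemia genes, act on stalled replication forks or interstrand crosslinks. The excision class has 15 genes: 4 of single-strand break repair, 6 of nucleotide excision repair and 5 of base excision repair. The mismatch class has 2 genes, MSH6 and PMS2. In the fit that takes account of the replicate number, 0 of the 46 passed the test between 20 µM citrinin and vehicle, where 2.21% of all tested genes passed, and 0 of the 46 between 10 µM and vehicle, where 0.0337% did. Between 20 µM and 10 µM 1 of the 46, APLF, was higher, where 0.444% of all genes passed. With so few of all genes called, counts of 0 or 1 among 46 do not tell repair genes from other genes. Without the replicate number 0% of all genes passed in any of the 3.

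SH-SY5Y is a neuroblastoma line, a single subclone of a tumour culture that grows as sympathetic neuroblast-like cells. Cells in MEM/F12 medium with serum received vehicle, 10 µM citrinin or 20 µM citrinin for 72 h, with 3 libraries of total RNA in each of the 3 groups. The labels name no genetic change in any group, and no non-cancerous neuron was included. The labels number the libraries 1 to 3 in each group but do not say whether they are separate cultures, and p-values therefore speak of the spread among these libraries alone, which may be technical.

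Cells meet DNA damage through sensors and kinases that mark the lesion, halt the cell cycle and recruit repair enzymes. Double-strand breaks are rejoined either by homologous recombination, which copies an intact sister chromatid and so works mainly in dividing cells, or by end joining, which needs no template. Damaged bases, bulky adducts and single-strand nicks are cut out and resynthesised by the excision routes, and mismatch repair removes errors left by replication. Many recombination and mismatch repair genes are expressed most in cells that replicate their DNA, so cell cycle genes were read beside them.

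Each library held 15678443 to 19604367 reads assigned to genes, and the 46 genes took 3365 to 3615 of each 1e6. Levels are given as CPM, gene counts per 1e6 gene reads, scaled with TMM, a normalization that aligns the bulk of genes between libraries. Same-numbered libraries were alike across doses, so a fit with the number as a block stands beside the planned fit without it. The exposure could be seen in NQO1, a quinone reductase induced through NRF2, which averaged 91.0 ± 5.13 CPM (SD, n = 3) in vehicle, 131 ± 23.2 CPM at 10 µM and 180 ± 18.9 CPM at 20 µM. It rose by 0.98 ± 0.06 (log2 ± SE) at 20 µM (edgeR with replicate block, adjusted p = 1.22e-11). In the fit without the block 0 of 7 NRF2 targets, NQO1 among them, passed at 20 µM (smallest edgeR adjusted p = 0.116), where 0% of all genes did. Of 10 sympathetic neuroblast markers all 10 were detected in every library, with a summed level of 2499 to 3817 CPM, and 8 of 8 mesenchymal markers summed to 3374 to 5469 CPM. Glial markers summed to 5.7 to 8.9 CPM, epithelial markers to 32.4 to 48.7 CPM, and the blood markers PTPRC, CD68 and HBB to 0.0 to 1.2 CPM. At 20 µM against vehicle with the replicate block, 7 of the 10 neuroblast markers passed and were lower. All 10 had log2 differences below 0 (median -0.19). Of the 8 mesenchymal markers 3 passed and were higher, but 4 had differences above 0 and 4 below (median 0.02). Of all tested genes 2.21% passed in either direction. Without the block 0 of either list passed, where 0% of all genes did. In such bulk libraries fewer cells of a type and less RNA per cell cannot be told apart, and the part of these marker shifts in the values of the repair genes was not tested.

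The promoters of 3 genes, picked by their p in these data, are shown first. They are APLF, the one gene called, and XRCC2 and RAD54L, the 2 recombination genes with the smallest p at 20 µM. Any link between these promoters and the values was not tested. Each runs from 250 bases before to 50 bases after the gene's start, 5′ to 3′ on the gene's strand, from RefSeq on GRCh38.p14. Capitals mark the E2F core (TTCCCGC, the form TTGGCGC or the form TTCGCGC, found in many genes of the S phase) and the box bound by NF-Y, named for its letters CCAAT, each searched on both strands. The APLF promoter is at chr2:68467335-68467634, plus strand. That of XRCC2 is at chr7:152676092-152676391, minus strand, and that of RAD54L at chr1:46247438-46247737, plus strand.
APLF: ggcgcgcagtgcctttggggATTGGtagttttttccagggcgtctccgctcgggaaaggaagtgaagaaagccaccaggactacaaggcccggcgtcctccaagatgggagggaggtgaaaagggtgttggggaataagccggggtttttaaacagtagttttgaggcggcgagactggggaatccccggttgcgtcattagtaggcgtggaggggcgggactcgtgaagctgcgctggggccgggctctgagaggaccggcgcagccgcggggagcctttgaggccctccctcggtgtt
XRCC2: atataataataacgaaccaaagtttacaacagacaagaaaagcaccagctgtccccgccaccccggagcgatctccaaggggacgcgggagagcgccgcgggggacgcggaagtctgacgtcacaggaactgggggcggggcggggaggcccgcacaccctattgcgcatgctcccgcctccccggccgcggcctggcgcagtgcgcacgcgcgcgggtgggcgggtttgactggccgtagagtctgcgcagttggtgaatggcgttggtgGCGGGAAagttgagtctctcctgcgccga
RAD54L: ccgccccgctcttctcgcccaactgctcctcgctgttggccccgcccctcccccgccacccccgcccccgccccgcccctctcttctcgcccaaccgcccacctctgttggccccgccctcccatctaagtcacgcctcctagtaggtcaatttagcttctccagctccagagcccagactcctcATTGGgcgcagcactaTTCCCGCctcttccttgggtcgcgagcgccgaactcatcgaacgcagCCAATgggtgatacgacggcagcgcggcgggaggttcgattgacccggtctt
The APLF window holds 1 CCAAT box, on the reverse strand, and 0 E2F cores. The XRCC2 window holds 1 E2F core, which reads GCGGGAA on the gene's strand and lies just after the start, and the RAD54L window 1 E2F core and 2 CCAAT boxes.

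Promoter windows were matched for 42 of the 46 genes, all but NBN, PRKDC, FANCI and XRCC5. The E2F core was present in 16 of the 42 (38.1%), against 11.0% of 35116 human promoter windows of the same length, which include those of non-coding genes. It was found in 9 of 25 double-strand break genes, 6 of 15 excision genes and 1 of 2 mismatch genes, MSH6. CCAAT boxes were in 22 of 42 (52.4%), against 34.6% of all windows. The cell cycle homology region TTTGAA was in 3 of 42 (7.14%), against 15.2% of all windows. The antioxidant response element core TGACNNNGC, the motif to which NRF2 binds, was in 5 of 42 (11.9%), against 13.3% of all windows, with both strands searched for each motif. No overlap between different motifs was excluded from these counts. A match describes the letters in the window and does not show a site in use.

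In vehicle-treated cells the genes differed widely in level per kilobase of exon. XRCC5, which encodes the Ku80 subunit that holds broken ends for end joining, was highest at 96.6 ± 0.690 CPM per kilobase (SD, n = 3). APEX1, the endonuclease that cuts at abasic sites, followed at 74.2 ± 4.02, then PARP1, the poly(ADP-ribose) polymerase that senses strand breaks, at 61.3 ± 0.820 and XRCC6, the Ku70 subunit, at 58.8 ± 5.61 CPM per kilobase. PARP1 and XRCC6 did not differ beyond their spread. PRKDC, the DNA-dependent protein kinase that Ku recruits, stood at 31.8 ± 0.590 CPM per kilobase. The median gene lay at 6.06 CPM per kilobase, with 11 genes above 10 and 3 below 1. MUTYH, the glycosylase that removes adenine paired with oxidised guanine, was lowest at 0.425 ± 0.053 CPM per kilobase, and its counts fell as low as 22 reads in a library. RAD50, a subunit of the break-sensing MRE11 complex, and ERCC5, the 3′ nuclease of nucleotide excision repair, were also below 1 on this scale. Other genes cover 79.7% of the exon bases of RAD50 and 63.3% of those of ERCC5, and reads shared between genes were left out of the deposited counts, so these 2 levels are uncertain. XRCC3, a recombination factor with 76.7% of its exon bases under KLC1, has the same limit, and in all 13 genes had over 20% of their exon bases shared.

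**Figure D1:**
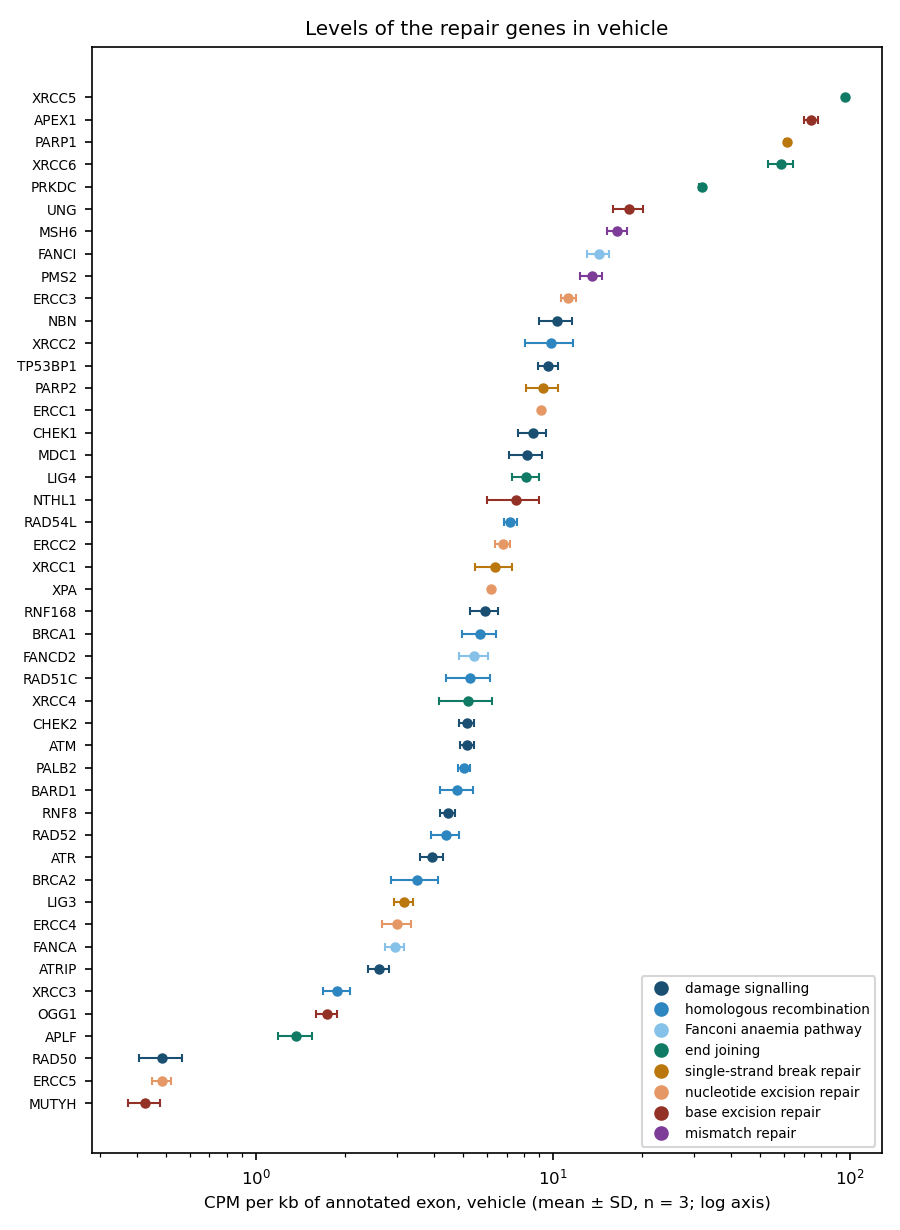
Level of each of the 46 genes in vehicle-treated cells in CPM per kilobase of exon (log axis; points are means and bars the SD of 3 libraries), coloured by pathway. XRCC5 is highest at 96.6 and MUTYH lowest at 0.425 CPM per kilobase.

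At 20 µM against vehicle, the first question was whether repair genes of any class moved with the exposure. In the planned edgeR fit 0 of the 46 genes passed an adjusted p of 0.05, where 0% of all tested genes passed, and 0 of the 46 had an unadjusted p under 0.05, against 2.17% of all genes. With the replicate block 0 of the 46 passed, against 2.21% of all genes (393 genes). At an unadjusted p under 0.05 the blocked fit held 8 of the 46 (17.4%), against 13.1% of all genes. Of these, ATR and APLF had higher values, and CHEK1, TP53BP1, MDC1, RAD54L, XRCC2 and MSH6 lower ones. The class counts were 7 of 29 double-strand break genes, 0 of 15 excision genes and 1 of 2 mismatch genes. DESeq2 with the block called 0 of the 46, against 239 genes in all, and limma-voom with the block 0 of the 46, against 381 in all.

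The differences were small for every class. The median log2 difference between 20 µM and vehicle with the block was -0.04 over the double-strand break genes, with 10 above 0 and 19 below, -0.0004 over the excision genes, with 7 above 0 and 8 below, and -0.04 over the mismatch genes, with 1 on each side. Over all 17806 tested genes it was -0.002. By pathway the medians ran from -0.08 for the 3 Fanconi anaemia genes, all below 0, and -0.05 for damage signalling to 0.08 for base excision repair. Homologous recombination stood at -0.03, single-strand break repair at -0.02, end joining at 0.01 and nucleotide excision repair at 0.01. The median size of difference, sign aside, was 0.0503 over the 46 genes, against 0.101 over all genes. The 46 genes and all genes were not matched for expression level, so these 2 medians do not rank repair genes against other genes. On the scale of summed CPM the double-strand break genes averaged 2326 ± 73.1 in vehicle, 2277 ± 52.0 at 10 µM and 2255 ± 91.3 at 20 µM (SD, n = 3). The excision genes summed to 992 ± 32.2, 994 ± 32.0 and 979 ± 49.6 CPM, and the mismatch genes to 235 ± 18.2, 234 ± 3.58 and 221 ± 18.2 CPM, in the same order. Within each class the group means of these sums differed by less than the larger SD of the groups compared, which leaves out the pairing by replicate number. By same-numbered pair, the double-strand break sum was 2244, 2385 and 2349 CPM in vehicle replicates 1 to 3 and 2157, 2268 and 2338 CPM at 20 µM, lower in 3 of 3 pairs. The mismatch sum was 216, 253 and 236 CPM in vehicle and 201, 237 and 226 CPM at 20 µM, also lower in 3 of 3. The excision sum was 1029, 970 and 978 CPM in vehicle and 1033, 935 and 970 CPM at 20 µM, lower in 2 of 3. These sums weigh the most abundant genes most and were not tested. With each gene weighed alike, the median log2 ratio of 20 µM to vehicle differed in pattern from the sums. In replicates 1 to 3 it was 0.02, -0.03 and -0.008 for the double-strand break genes. For the excision genes it was -0.02, -0.05 and -0.01, and for the mismatch genes -0.07, -0.05 and -0.005.

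Intervals from the blocked fit show how precisely each difference was estimated. They hold for each gene alone, not for all 46 jointly, and speak of the spread among these libraries only. The 95% interval of the difference between 20 µM and vehicle lay within a 1.5-fold change in either direction for 44 of the 46 genes, all but APLF and MUTYH, and within a 2-fold change for all 46. It lay within 1.25-fold for 35. Without the block 43 were within 1.5-fold and 19 within 1.25-fold, RAD54L being the third gene beyond 1.5-fold.

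**Figure D2:**
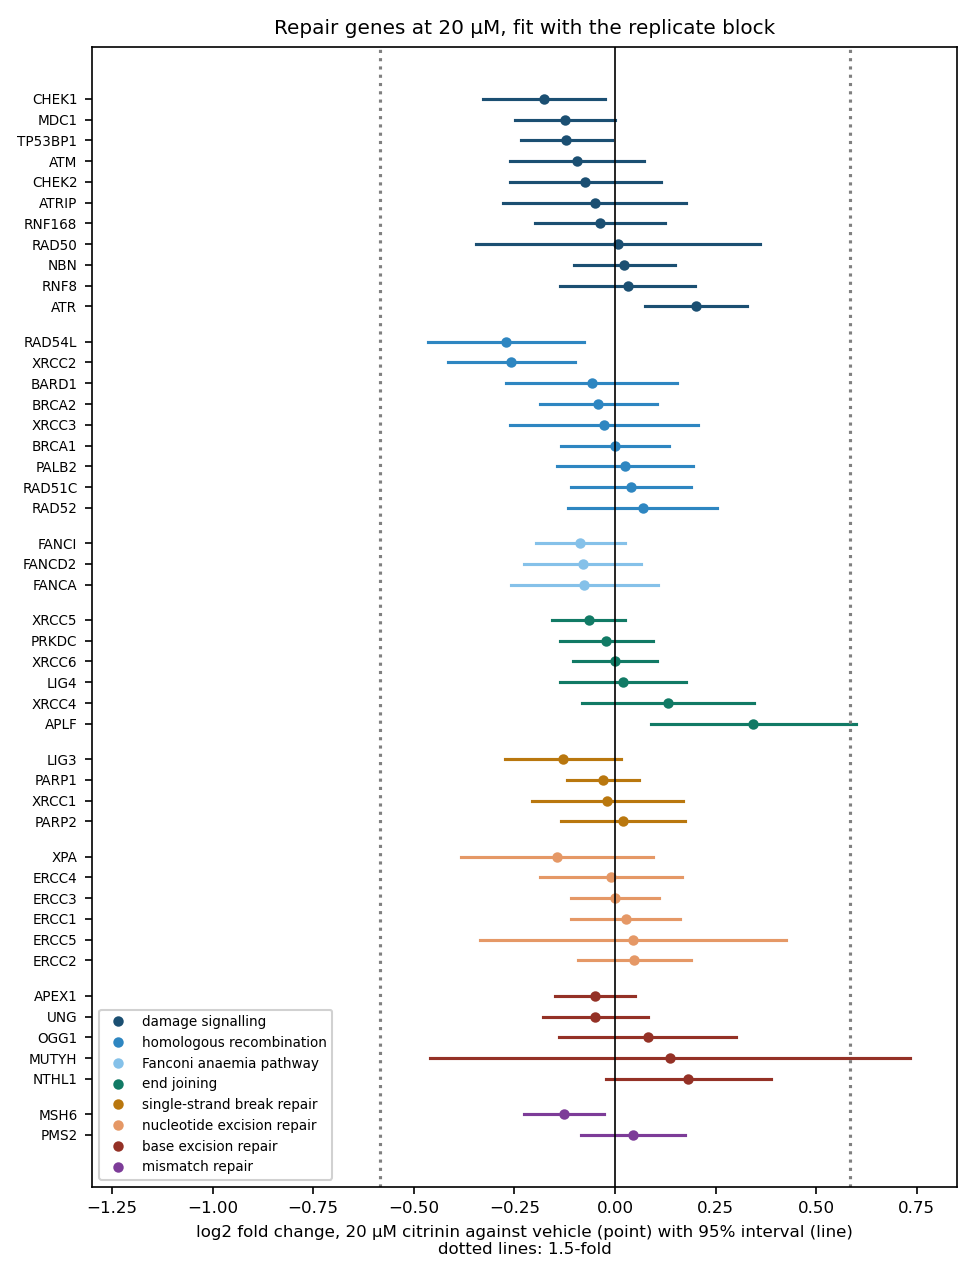
Log2 difference between 20 µM citrinin and vehicle for the 46 genes in the edgeR fit with replicate block (points) with 95% intervals (lines), grouped and coloured by pathway, with dotted lines at a 1.5-fold change. All 46 intervals lie within a 2-fold change, and those of APLF and MUTYH pass the dotted lines.

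**Figure D3:**
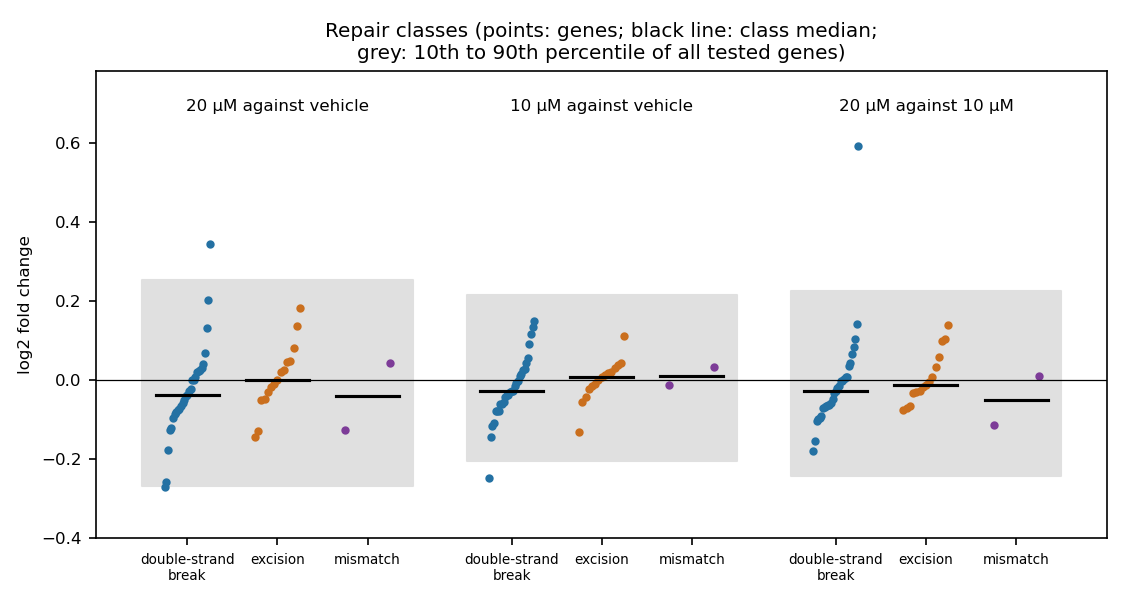
Log2 differences of single genes (points) by class in the 3 dose comparisons, with each class's median (bar) and the 10th to 90th percentile of all tested genes (grey band). The medians at 20 µM against vehicle are -0.04, -0.0004 and -0.04 for the double-strand break, excision and mismatch classes.

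Among the damage signalling genes ATR, the kinase that responds to stalled replication forks and single-stranded DNA, had the smallest p. Its level was 44.2, 52.4 and 51.1 CPM in vehicle replicates 1 to 3, 47.7, 53.7 and 58.8 CPM at 10 µM, and 48.6, 59.6 and 61.9 CPM at 20 µM. It was higher at 20 µM than at vehicle in 3 of 3 same-numbered pairs, while replicate 1 was low at every dose and the groups overlapped. The log2 difference at 20 µM was 0.20 ± 0.06 (edgeR with block, adjusted p = 0.0922). CHEK1, the checkpoint kinase that ATR activates, measured 51.3, 62.9 and 54.5 CPM in vehicle, 54.8, 52.2 and 52.6 CPM at 10 µM and 54.6, 47.8 and 47.0 CPM at 20 µM. Its replicate 1 was higher at 20 µM than in vehicle and its other 2 pairs were lower, which gave -0.18 ± 0.07 (edgeR with block, adjusted p = 0.272). Without 20 µM replicate 1 both passed with the block, ATR at 0.23 (edgeR adjusted p = 0.0465) and CHEK1 at -0.27 (edgeR adjusted p = 0.026). CHEK1 also passed without all 3 libraries numbered 1, at -0.31 (edgeR adjusted p = 0.0168). Each of these fits called more genes in all than the full blocked fit (393 genes). A pass there therefore does not set ATR or CHEK1 apart from other genes.

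TP53BP1, which shields broken ends from resection, averaged 126 ± 9.46 CPM in vehicle and 116 ± 17.5 CPM at 20 µM, and MDC1, the scaffold that binds phosphorylated histone H2AX, 65.9 ± 8.29 and 60.3 ± 5.65 CPM. Each was lower in 3 of 3 pairs, by a log2 difference of -0.12 ± 0.05 and -0.13 ± 0.06 (edgeR with block, adjusted p = 0.329 and 0.377). The other 7 signalling genes had log2 differences between -0.09 and 0.03. They include ATM, the kinase of the double-strand break response, at 123 ± 6.45 CPM in vehicle against 115 ± 12.1 CPM at 20 µM, and CHEK2, its effector kinase, at 23.2 ± 1.36 and 22.0 ± 1.57 CPM. NBN, the MRE11 complex subunit that binds ATM, was at 63.5 ± 7.88 and 64.7 ± 11.8 CPM, and the histone ubiquitin ligases RNF8 and RNF168 at 29.1 ± 1.63 and 31.6 ± 3.50 CPM in vehicle and 29.8 ± 1.06 and 30.7 ± 1.25 CPM at 20 µM. ATRIP, the partner that brings ATR to single-stranded DNA, averaged 14.2 ± 1.17 CPM in vehicle and 13.7 ± 1.75 CPM at 20 µM, and RAD50 4.75 ± 0.777 and 4.76 ± 0.521 CPM. For all of these the groups overlapped.

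In homologous recombination XRCC2, a factor of the strand exchange step, had the smallest p of the 46 genes at 20 µM. Its level was 46.0, 57.6 and 40.5 CPM in vehicle, 47.7, 45.8 and 42.1 CPM at 10 µM and 37.8, 43.0 and 39.1 CPM at 20 µM. Every pair was lower at 20 µM than in vehicle, though vehicle replicate 3 lay inside the range of the 20 µM libraries. The log2 difference was -0.26 ± 0.08 (edgeR with block, adjusted p = 0.0807). It passed when 10 µM replicate 1 (edgeR adjusted p = 0.0363) or 10 µM replicate 2 (edgeR adjusted p = 0.0174) was left out of the blocked fit. Both of these fits called more genes in all than the full blocked fit (393 genes). RAD54L, a motor protein that drives strand exchange, measured 24.4, 22.7 and 22.3 CPM in vehicle, 26.0, 19.0 and 19.5 CPM at 10 µM and 24.2, 16.9 and 17.0 CPM at 20 µM. Replicate 1 stayed near its vehicle value, and replicates 2 and 3 were lower, with a log2 difference of -0.27 ± 0.09 (edgeR with block, adjusted p = 0.156). RAD54L passed without 20 µM replicate 1 at -0.36 (edgeR adjusted p = 0.0465) and without the 3 libraries numbered 1 at -0.41 (edgeR adjusted p = 0.0311). The list of called genes was longer than in the full blocked fit here too, so these passes do not set XRCC2 or RAD54L apart.

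The other 7 recombination genes had log2 differences between -0.06 and 0.07 at 20 µM. BRCA1, the ligase that promotes end resection, averaged 52.3 ± 6.96 CPM in vehicle, 55.6 ± 3.60 CPM at 10 µM and 52.2 ± 3.29 CPM at 20 µM. BRCA2, the tumour suppressor that acts after end resection, averaged 42.7 ± 7.70, 38.6 ± 5.94 and 41.6 ± 7.87 CPM, and PALB2, which joins the BRCA proteins, 23.9 ± 1.07, 23.3 ± 2.04 and 24.3 ± 1.49 CPM. BARD1, the partner of BRCA1, averaged 29.0 ± 3.62 CPM in vehicle and 27.8 ± 3.08 CPM at 20 µM. RAD51C averaged 31.9 ± 5.35 and 32.8 ± 5.34 CPM, XRCC3 14.1 ± 1.47 and 14.0 ± 3.58 CPM, and RAD52, which anneals single strands, 18.4 ± 1.97 and 19.3 ± 2.07 CPM. The groups overlapped for each. The median log2 ratio of 20 µM to vehicle over the 9 genes was 0.02 in replicate 1, -0.14 in replicate 2 and 0.06 in replicate 3, so the pairs did not share a direction.

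In the Fanconi anaemia pathway, which unhooks interstrand crosslinks, FANCI had the smallest p. It measured 105, 122 and 106 CPM in vehicle and 104, 103 and 105 CPM at 20 µM, without overlap, a log2 difference of -0.09 ± 0.05 (edgeR with block, adjusted p = 0.541). FANCD2, its partner in the complex that is ubiquitinated at crosslinks, averaged 45.7 ± 5.03 CPM in vehicle and 43.2 ± 1.76 CPM at 20 µM, and FANCA, of the ligase core complex, 28.6 ± 2.08 and 27.2 ± 3.18 CPM.

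APLF, a histone chaperone that is recruited by Ku and by poly(ADP-ribose) to promote ligation of broken ends, was the one gene of the set to pass a test between doses. The gene (ENSG00000169621) lies on chromosome 2 from 68467561 to 68655862, plus strand, on GRCh38, and 22.8% of its exon bases are shared with PROKR1. Its level was 9.71, 8.52 and 11.1 CPM in vehicle replicates 1 to 3, 6.64, 8.07 and 10.0 CPM at 10 µM, and 11.9, 12.3 and 12.9 CPM at 20 µM. All 3 libraries at 20 µM lay above all 6 others, and every pair was lower at 10 µM than in vehicle. Between 20 µM and 10 µM it rose by 0.59 ± 0.13 in log2 (edgeR with block, adjusted p = 0.025), where 0.444% of all genes passed in either direction and 0.18% were higher. In the planned fit without the block APLF did not pass (edgeR adjusted p = 1), nor in DESeq2 with the block (adjusted p = 0.072), while limma-voom with the block gave an adjusted p of 0.0418. Against vehicle the differences were 0.34 ± 0.12 at 20 µM (edgeR with block, adjusted p = 0.181) and -0.25 ± 0.13 at 10 µM.

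The APLF call depended on single libraries. In the blocked fit it held without vehicle replicate 1, vehicle replicate 2, 10 µM replicate 2 or 20 µM replicate 1, with edgeR adjusted p values of 0.0165 to 0.045. It was lost without vehicle replicate 3 (edgeR adjusted p = 0.0672), 10 µM replicate 1 (0.19), 10 µM replicate 3 (0.146), 20 µM replicate 2 (0.178) or 20 µM replicate 3 (0.0792), with the log2 difference between 0.47 and 0.72 in every case with a library left out. With a whole replicate number left out it held without number 2 (edgeR adjusted p = 0.0354) and was lost without number 1 (0.124) or number 3 (0.477).

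The other 5 end joining genes had log2 differences between -0.07 and 0.13 at 20 µM. XRCC5 averaged 527 ± 3.77 CPM in vehicle, 514 ± 12.2 CPM at 10 µM and 504 ± 17.1 CPM at 20 µM. All 3 libraries at 20 µM were below all 3 in vehicle, with a log2 difference of -0.07 ± 0.04 (edgeR with block, adjusted p = 0.568). XRCC6 averaged 193 ± 18.5 CPM in vehicle and 193 ± 10.3 CPM at 20 µM, and PRKDC 490 ± 9.07 and 483 ± 49.4 CPM. XRCC4, the scaffold of the ligation step, averaged 13.9 ± 2.80 and 15.2 ± 2.58 CPM, and its partner ligase LIG4 35.8 ± 3.79 and 36.6 ± 8.40 CPM. Values in the groups overlapped for these 4 genes.

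**Figure D4:**
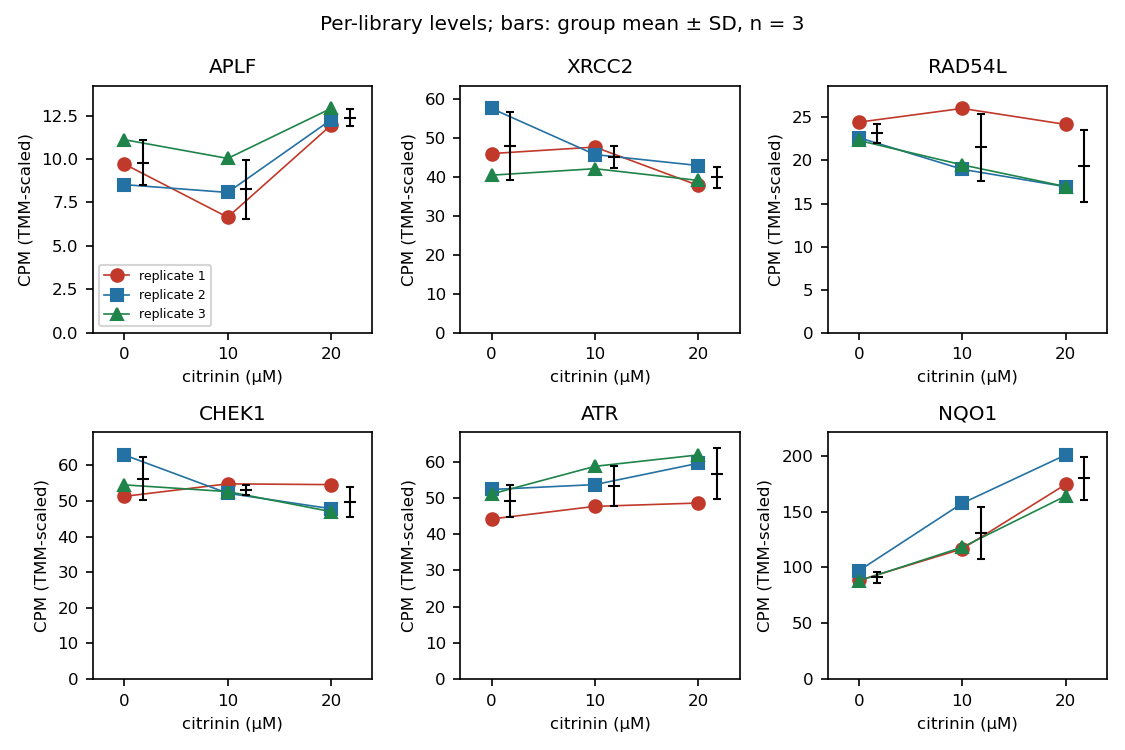
Level in each library in CPM (vertical axes from 0) against citrinin dose for APLF, XRCC2, RAD54L, CHEK1 and ATR, with NQO1 for reference. Lines join libraries with the same replicate number and bars give the mean and SD of 3 libraries. APLF at 20 µM lies above its 6 other libraries, while the lines of ATR and RAD54L keep replicate 1 apart at 20 µM.

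Among excision genes 0 of 15 had an unadjusted p under 0.05 in the blocked fit, against 13.1% of all genes at 20 µM and 3.59% at 10 µM, which amounts to few genes among 15. In single-strand break repair LIG3, the ligase that seals nicks with XRCC1, averaged 40.8 ± 3.13 CPM in vehicle and 37.2 ± 0.651 CPM at 20 µM, for a log2 difference of -0.13 ± 0.07 (edgeR with block, adjusted p = 0.449). PARP1 averaged 439 ± 5.90 and 430 ± 12.7 CPM, PARP2, its relative, 37.9 ± 4.70 and 38.6 ± 6.53 CPM, and the scaffold XRCC1 22.2 ± 3.15 and 22.1 ± 5.73 CPM. These 3 had log2 differences between -0.03 and 0.02.

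In nucleotide excision repair XPA, the damage verification factor, measured 11.4, 11.4 and 11.3 CPM in vehicle, 10.3, 11.2 and 9.72 CPM at 10 µM and 11.0, 10.3 and 9.65 CPM at 20 µM. Both doses lay below vehicle without overlap, but at this level the log2 difference of -0.14 ± 0.12 at 20 µM was close to its error (edgeR with block, adjusted p = 0.654). The helicase genes ERCC2 and ERCC3, of the TFIIH complex, averaged 43.8 ± 2.50 and 95.3 ± 5.51 CPM in vehicle and 45.3 ± 2.06 and 95.3 ± 7.22 CPM at 20 µM. ERCC1 and ERCC4, which form the 5′ nuclease, averaged 51.0 ± 0.285 and 25.4 ± 2.77 CPM in vehicle and 52.1 ± 5.12 and 25.2 ± 3.13 CPM at 20 µM. ERCC5 averaged 3.99 ± 0.304 CPM in vehicle and 4.11 ± 0.425 CPM at 20 µM. The groups overlapped for these 5 genes.

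In base excision repair NTHL1, a glycosylase for oxidised pyrimidines, measured 22.5, 16.1 and 16.2 CPM in vehicle and 21.8, 19.5 and 20.5 CPM at 20 µM. Vehicle replicate 1 was above the other 2 by more than the difference between doses, and the log2 difference was 0.18 ± 0.10 (edgeR with block, adjusted p = 0.453). APEX1 averaged 140 ± 7.58 and 135 ± 12.3 CPM, a log2 difference of -0.05 ± 0.05. OGG1, the glycosylase for 8-oxoguanine, averaged 15.2 ± 1.19 and 16.1 ± 1.58 CPM, UNG, which removes uracil, 46.3 ± 5.37 and 44.9 ± 6.43 CPM, and MUTYH 1.66 ± 0.206 and 1.83 ± 0.203 CPM. The groups overlapped for all 5 base excision genes.

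The mismatch genes went in different directions by less than the test could call. MSH6, which recognises base mismatches, measured 168, 195 and 183 CPM in vehicle, 178, 182 and 179 CPM at 10 µM and 152, 178 and 169 CPM at 20 µM. It was lower at 20 µM in 3 of 3 pairs, by a log2 difference of -0.13 ± 0.05 (edgeR with block, adjusted p = 0.216), and the groups overlapped. PMS2, the endonuclease subunit that acts after recognition, averaged 53.3 ± 4.61 CPM in vehicle and 55.0 ± 5.29 CPM at 20 µM, for a log2 difference of 0.04 ± 0.06 (edgeR with block, adjusted p = 0.832).

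At 10 µM against vehicle 0 of the 46 genes passed with the block, against 0.0337% of all genes (6 genes), and 0 without it, against 0%. The unadjusted p was under 0.05 for 0 of the 46 in both fits, against 3.59% of all genes with the block and 0.646% without. The medians were -0.03, 0.01 and 0.01 for the double-strand break, excision and mismatch classes, and the interval lay within 1.5-fold for 45 of the 46, all but MUTYH. Between 20 µM and 10 µM the planned fit called 0 of the 46, against 0% of all genes, and had 1, APLF, at an unadjusted p under 0.05, against 1.18%. The blocked fit called APLF alone and had 3 genes (6.52%) at an unadjusted p under 0.05, APLF with a higher value and XRCC2 and MSH6 with lower ones, against 8.81% of all genes. Its class medians were -0.03, -0.01 and -0.05. The 3 dose comparisons share libraries, so their values for a gene are not independent of each other.

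Groups of 3 that do not overlap were counted without a model. At 20 µM 1 gene, APLF, lay wholly above vehicle and 3, FANCI, XRCC5 and XPA, wholly below, together 4 of 46, where 6.76% of all genes did not overlap (3.41% above and 3.35% below). At 10 µM 1 gene, XPA, lay wholly below vehicle, where 4% of all genes did not overlap (1.94% below). Between the doses 2 genes, APLF and the ubiquitin ligase RNF8, lay wholly above at 20 µM, where 4.87% of all genes did not overlap (2.37% above). Same-numbered pairs moved together at 20 µM against vehicle for 6 higher and 9 lower genes of 46, where 17.5% and 17.8% of all genes did so.

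By their median size, differences among the 46 genes were larger between replicate numbers than between doses, although the largest single difference was that of APLF between the doses (0.59, against at most 0.48 between replicate numbers). In an edgeR fit with dose and replicate number, 21 of 46 genes (45.7%) differed between the numbers at an adjusted p of 0.05, against 43.3% of all genes. By class these were 14 of 29 double-strand break genes (48.3%), 5 of 15 excision genes (33.3%) and 2 of 2 mismatch genes. By pathway they were 7 of 9 recombination genes, 5 of 11 of signalling, 3 of 5 of base excision repair, 2 of 4 of single-strand break repair, 2 of 6 of end joining, 0 of 3 of the Fanconi anaemia pathway and 0 of 6 of nucleotide excision repair. The median size of difference over the 46 genes was 0.15 in log2 between replicates 2 and 1, 0.117 between replicates 3 and 1 and 0.0719 between replicates 3 and 2. Between doses it was 0.0503 for 20 µM against vehicle, 0.0389 for 10 µM against vehicle and 0.0598 for 20 µM against 10 µM. The last is close to the value between replicates 3 and 2. Over all genes, not matched for level, the sizes were 0.225, 0.23 and 0.132 between replicates and 0.101, 0.0705 and 0.0871 between doses, in the same order.

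BRCA2 had the smallest p for replicate number. Averaged over the 3 doses it was at 33.2 CPM in replicate 1, 46.2 CPM in replicate 2 and 43.6 CPM in replicate 3, and all 3 libraries of replicate 1 lay below the other 6 (edgeR adjusted p = 8.85e-06). RAD51C, a partner of XRCC2 and XRCC3 in recombination, averaged 27.2, 37.2 and 33.4 CPM (edgeR adjusted p = 4.59e-05), and LIG4 29.5, 39.6 and 38.9 CPM (edgeR adjusted p = 7.19e-05). These 3 were lowest in replicate 1 at each dose. XRCC1 averaged 27.0, 19.6 and 20.0 CPM (edgeR adjusted p = 0.000107) and MDC1 73.2, 58.5 and 59.3 CPM (edgeR adjusted p = 7.21e-05), both highest in replicate 1 at each dose. NBN stood apart in replicate 3, at 58.4, 59.5 and 74.5 CPM (edgeR adjusted p = 2.64e-05). UNG averaged 50.8, 46.1 and 40.0 CPM (edgeR adjusted p = 0.000352) and MSH6 166, 185 and 177 CPM (edgeR adjusted p = 0.0283). The MSH6 call held in 5 alternative settings and was lost in 9. Those 9 include the fits without any one of the 3 vehicle or 3 libraries at 20 µM or without 10 µM replicate 3 (edgeR adjusted p 0.0557 to 0.206). Not past the threshold were FANCI (edgeR adjusted p = 0.15) and ERCC3 (edgeR adjusted p = 0.0546), the genes of their pathways with the smallest p. FANCI passed without 20 µM replicate 2 (edgeR adjusted p = 0.0257) and ERCC3 without 10 µM replicate 1 (edgeR adjusted p = 0.0371).

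Replicate 1 lay wholly above the other 6 libraries for 7 of the 46 genes (15.2%), MDC1, RAD54L, XRCC3, XRCC1, PARP2, APEX1 and UNG, where 14.9% of all genes did. It lay wholly below for 8 (17.4%), ATR, TP53BP1, BRCA2, RAD51C, XRCC4, LIG4, ERCC4 and PMS2, where 16.1% of all genes did. Replicate 2 lay apart for 4 genes, above for BRCA1 and RAD51C, where 6.8% of all genes were above, and below for RAD50 and RAD52, where 5.48% were below. Replicate 3 lay apart for 3, above for NBN, where 6.27% were above, and below for PALB2 and UNG, where 4.49% were below. The labels do not say what a replicate number stands for.

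**Figure D5:**
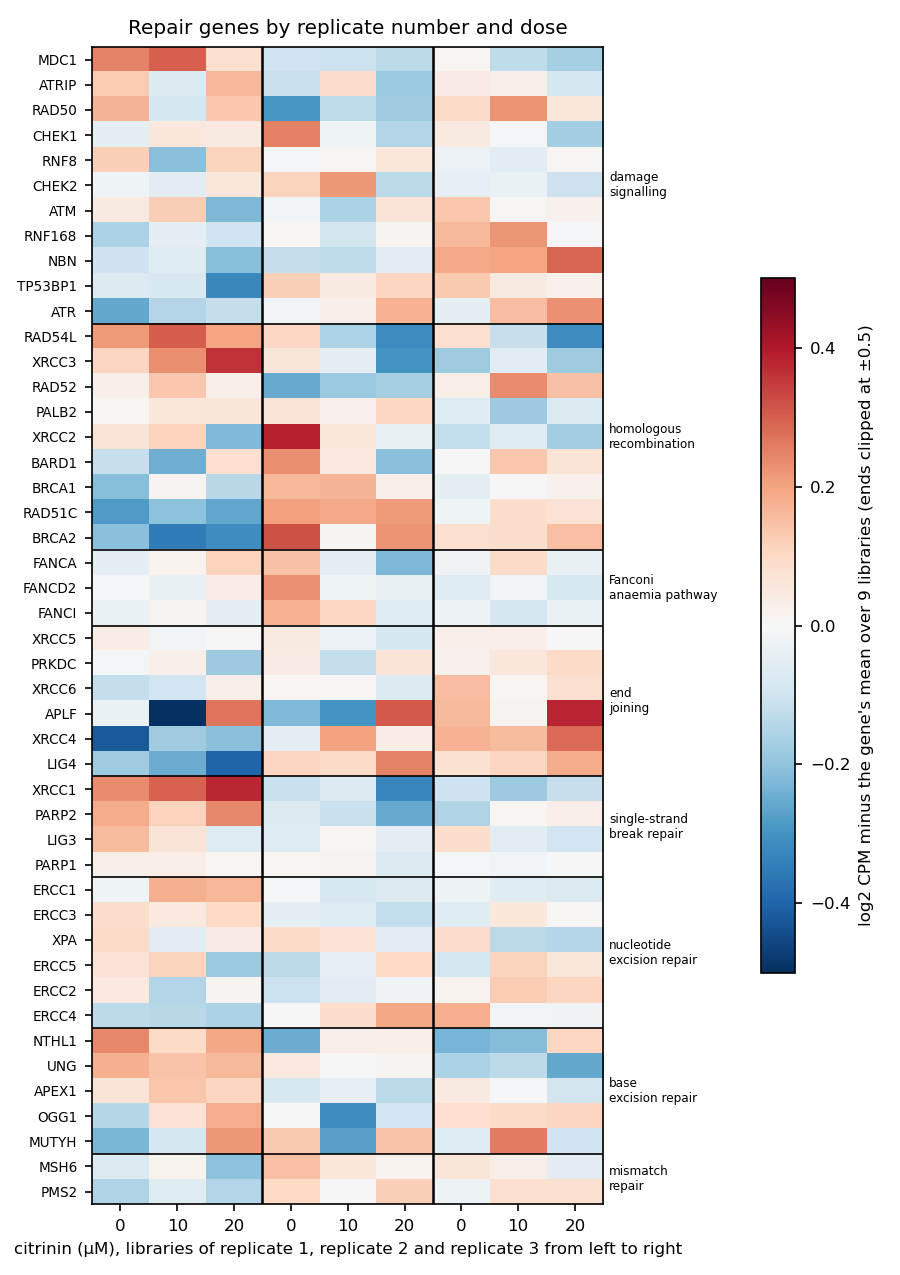
Log2 CPM of each gene minus its mean over the 9 libraries (colour, clipped at 0.5 either way), with columns ordered by replicate number and then by dose (0, 10 and 20 µM) and rows grouped by pathway. Columns of one replicate number look alike across doses, as in BRCA2 and XRCC1, which differ between replicate 1 and the others.

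Values of other gene groups moved between the same libraries. Of 28 p53 target genes 27 differed between replicate numbers, where 43.3% of all genes did. So did 10 of 10 sympathetic neuroblast markers, 8 of 8 mesenchymal markers and 20 of 31 cycling cell genes. The median log2 difference between replicates 2 and 1 was 0.85 for the p53 targets. It was -0.28 for the neuroblast markers, -0.39 for the mesenchymal markers and 0.08 for the cycling cell genes. CDKN1A, the p53-induced inhibitor of cyclin-dependent kinases, averaged 168, 426 and 470 CPM in replicates 1 to 3. At 20 µM against vehicle 23 of the 28 had differences above 0 (median 0.16 with the block), and 14 were higher in 3 of 3 same-numbered pairs, where 17.5% of all genes were. With the block 2 of the 28 passed and rose, where 2.21% of all genes passed in either direction. They were CDKN1A, by 0.18 ± 0.05 (edgeR adjusted p = 0.0369), and MDM2, the p53 ubiquitin ligase, by 0.21 ± 0.05 (edgeR adjusted p = 0.0305). Of 31 cycling cell genes 22 had differences below 0 (median -0.06), and 7 were lower in 3 of 3 pairs, where 17.8% of all genes were. With the block 2 of the 31 passed and fell, against the same 2.21% of all genes. They were TOP2A, the mitotic topoisomerase, by 0.23 on the log2 scale (edgeR adjusted p = 0.00517), and the proliferation marker MKI67, by 0.20 (edgeR adjusted p = 0.0256). Without the block 0 of these 4 genes passed. In the blocked fit leaving out vehicle replicate 2 (edgeR adjusted p 0.224 to 0.516) or 20 µM replicate 3 (edgeR adjusted p 0.0791 to 0.218) ended all 4 calls. CDKN1A, MDM2 and MKI67 were also lost without vehicle replicate 3, 10 µM replicate 3 or 20 µM replicate 2, and CDKN1A and MDM2 without vehicle replicate 1 (edgeR adjusted p 0.0722 to 0.227 over these). The summed level of the 31 was 2634, 3002 and 2636 CPM in vehicle replicates 1 to 3, 2655, 2904 and 2685 CPM at 10 µM and 2747, 2542 and 2535 CPM at 20 µM. The sum was higher at 20 µM than in vehicle in replicate 1 and lower in replicates 2 and 3, and CHEK1 had the same pattern. The part of these genes' shifts in the values of CHEK1, XRCC2, RAD54L and MSH6 was not tested.

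Beyond the 46 genes, 125 further genes of the same pathways, of translesion synthesis and of direct damage reversal were listed, and 124 were tested. The nucleotide excision repair genes XPC and DDB2 are in this list and also among the 28 p53 target genes above. With the block 0 of the 124 passed in any of the 3 dose comparisons, against 2.21%, 0.0337% and 0.444% of all genes, and 0 passed without it. At 20 µM 15 of the 124 had an unadjusted p under 0.05, against 13.1% of all genes, and the median log2 difference was -0.03, with 50 genes above 0 and 74 below. Picked after their values were seen, the 2 nearest to the threshold were RAD18, the ubiquitin ligase that starts translesion synthesis, at -0.25 ± 0.07 (edgeR with block, adjusted p = 0.0588), and RBBP8, the resection factor CtIP, at -0.20 ± 0.06 (edgeR with block, adjusted p = 0.0686). Between replicate numbers 56 of the 124 (45.2%) differed, against 43.3% of all genes.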

How the data were processed

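Total RNA of SH-SY5Y cells was sequenced in 9 libraries. Per the submitters' processing notes, FastQC, cutadapt, STAR, edgeR and build GRCh38 were used, and their versions and the gene annotation are not stated there. The authors deposited raw counts per gene for each library, and the count of both strands together was used, since the strands were about equal (ratio 1.007 to 1.020). Set apart were unmapped reads (2.86% to 3.62%), reads with several matches (2.22% to 2.61%), those outside genes (6.75% to 7.98%) and those ambiguous between genes (9.51% to 10.1%). Antisense and overlapping genes cannot be told apart by strand. The deposited log2 CPM table was not used.

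Symbols, positions, exon lengths and overlaps are from GENCODE 29 on GRCh38. Tests used edgeR 4.0.16 in R 4.3.3 (filterByExpr, TMM factors 0.989 to 1.013, robust quasi-likelihood fit over all 9 libraries, Benjamini-Hochberg adjustment over 17806 genes), with 6 residual degrees of freedom, and 4 with the replicate block. Intervals are 95% intervals from that fit. The 9 same-numbered pairs of libraries, numbered in the sample titles, had correlated deviations from their group means (r 0.457 to 0.685, limit 0.1). On this the numbers were taken to pair the samples. Other pairs had r of -0.545 to 0.139. Deviations cancel out within a group, so these lower values are partly built in and are no separate support. Replicates differed beyond sampling noise (chi-square of 8.85 or more for each degree of freedom). Named genes were, per pathway, those with the smallest p for dose (up to 2) and for replicate number, any called gene, and the highest and lowest level. All other genes of the set are given by value. DESeq2 1.42.0, limma-voom 3.58.1, no low-count filter and each library or replicate number left out were alternatives. The scripts were tested on simulated data. The genes and lists were chosen with earlier results of these data known.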

Additional observations from a re-analysis of the deposited data

How the results depend on the processing

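Counts of called genes and class medians were recomputed under each alternative. At 20 µM against 10 µM the count of called genes among the 46 was 0 in the planned fit, where 0 genes in all passed. With the replicate block it was 1 (79 genes in all), and in limma-voom with the replicate block 1 (77 in all). With libraries or replicate numbers left out, with and without the block, it ran from 0 to 1 there, from 0 to 3 at 20 µM against vehicle and from 0 to 0 at 10 µM. At 20 µM against vehicle, every such fit that called any of the 46 also called more genes in all than the full blocked fit (393). Class medians (log2) under the same omissions ran from -0.069 to 0.002 (double-strand break), -0.054 to 0.056 (excision) and -0.100 to 0.026 (mismatch) at 20 µM against vehicle, from -0.058 to 0.011, -0.033 to 0.055 and -0.051 to 0.064 at 10 µM, and from -0.045 to 0.005, -0.061 to 0.035 and -0.100 to 0.020 between the doses, so none keeps its sign. The log2 differences at 20 µM against vehicle of APEX1 (-0.126 to 0), CDKN1A (-0.143 to 0.533) and MDM2 (-0.058 to 0.545) also reached or passed 0 under omissions, and the cause was not tested. The replicate number count ran from 16 to 22 under omissions. It was 15 in DESeq2's likelihood ratio test (6161 genes in all) and 17 without a dose term (7115 in all), against 21 (7708 in all). Besides APLF between the doses, the replicate block changed no call among the 46 genes. Over all genes it moved the calls from 0 to 393, 6 and 79 in the 3 dose comparisons. At 20 µM against vehicle without the block DESeq2 called 11 genes in all and edgeR with no low-count filter 6, and both 0 of the 46. Depth limits MUTYH most, whose interval passes 1.5-fold in every comparison.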
